A study of Homo sapiens with 2 samples.

Results

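The genes that write and remove methyl groups on histone lysines were examined in A1847, an ovarian cancer line of human origin. The list held 28 methyltransferase genes and 18 demethylase genes, 46 in all, out of 57736 genes in the count table. It was drawn up by enzyme family and leaves out some enzymes of these families, which were not analysed here. Each member was found by gene symbol in an annotation of GRCh37, and each had a sum of at least 10 reads over the libraries, so that none was lost to the filter on low counts.

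RNA-Seq was performed on 1 library of CARM1 wild type (parental) A1847 cells and 1 library of CARM1 knockout (CARM1 KO) A1847 cells. CARM1 is a methyltransferase of arginine and is not a member of the list. The knockout cells were a single clone made with lentiviral CRISPR, so a trait of that clone cannot be told apart from an effect of CARM1 loss. Both were grown without further treatment in the same medium with serum. The guide RNA is shown here because it defines the knockout. It matched GRCh37 at chr19:11022919-11022938 on the plus strand, in coding exon 5 of the canonical CARM1 transcript, and the capitals mark the adjoining PAM.
CARM1 guide site: agcacggaaaatctacgcggTGG

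Histone lysine methyltransferases transfer a methyl group from S-adenosylmethionine, mostly through a SET domain, whereas DOT1L uses a different fold. Methylation of H3K4 marks promoters and enhancers of active genes, and that of H3K36 and H3K79 marks transcribed gene bodies. Methylation of H3K9 and trimethylation of H4K20 are found in silent chromatin. The demethylases are of different chemistry. The KDM1 enzymes use FAD, and the JmjC enzymes use iron, oxygen and 2-oxoglutarate. Demethylation of H3K27 opposes the mark that PRC2 lays down, which is the mark this study was concerned with.

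Library sizes were adjusted by TMM in edgeR, CPM are reads relative to the adjusted size, and fold changes are ratios of CPM. With 1 library per group, the spread between replicates is unknown and no difference has a replicate check. The 95% intervals are binomial and exact, account for counting error alone, and compare the libraries rather than the conditions. A member was counted as higher or lower where its interval lay wholly beyond 1.5-fold. A fold threshold of 3 was applied to the point value as a second rule, without regard to the interval. Levels are given as RPKM, which here are CPM per kilobase of the canonical transcript.

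The libraries held 30741953 and 32300391 reads in parental and CARM1 KO cells. CARM1 itself had 975 parental and 380 CARM1 KO reads and was 2.65-fold lower in the knockout (95% interval 2.35 to 2.99). Epithelial markers differed between the groups. Of the 7 tested, 5 (EPCAM, KRT7, KRT8, PAX8 and CDH1) were more than 3-fold higher in CARM1 KO cells, and KRT18 was 2.34-fold higher. The keratin KRT19, with 45 parental and 0 CARM1 KO reads, was more than 3-fold lower. The summed level of the listed epithelial markers was 1412 CPM in parental and 4694 CPM in CARM1 KO cells. KRT8 alone had 568 and 2198 CPM. Too few reads to test were found for WT1, with 8 and 1, and MUC16, with 0 and 1. Of the 4 fibroblast markers, COL1A1 had 131 and 537 reads and PDGFRB had 132 and 142, while LUM had 61 and 1 and DCN had 24 and 0, and their sum was 11.2 and 21.2 CPM. The leukocyte marker PTPRC had 6 and 0 reads and the endothelial marker CDH5 had 0 in both. The part of these differences in the results below was not tested.

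Most members were moderately expressed, and 25 of the 46 lay within 1.5-fold of parental cells. The median absolute log2 fold change was 0.43 over the members and 0.72 over all genes tested. In CARM1 KO cells 32 members had a lower and 14 a higher point value. Of the 18563 genes tested, 9556 had a lower and 9007 a higher value. By the interval rule 9 members were lower and 4 were higher. The lower members were KDM6B, KDM5B, KMT5C, KDM6A, KDM5C, DOT1L, KDM4D, SETDB1 and SUV39H2, and the higher were SMYD3, KDM5A, NSD3 and KDM1B. Over all 18563 genes whose reads summed to at least 10, 18.5% were lower and 19.3% were higher by the same rule, beside 19.6% and 8.70% of members. The lower count was therefore near the background.

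Changes above 3-fold were rare among these genes. None of the 46 members was more than 3-fold higher, where 12.7% of all genes were. Only KDM5B and KDM6B were more than 3-fold lower, which is 4.35% of members beside 11.8% of all genes. Of the 44 members whose reads summed to at least 100, 1 was more than 3-fold lower and 0 more than 3-fold higher, beside 7.38% and 10.3% of all genes at that depth. By the interval rule 8 of the 44 were lower and 4 were higher, beside 18.8% and 21.2%. The median log2 fold change was -0.20 over the members and -0.04 over all genes tested.

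The level of the genes was ordered in much the same way in both libraries, with a Pearson r of 0.945 across the log2 RPKM of the 46 genes, which are not independent of one another. The median level was 9.27 RPKM in parental and 7.12 RPKM in CARM1 KO cells. KDM1A was the most abundant member in each, at 85.1 and 68.8 RPKM. It was followed by SETD3, at 43.5 and 39.8 RPKM, and KMT5A, at 26.1 and 35.7 RPKM. KDM6B was the least abundant, at 0.0815 and 0.00464 RPKM. KDM5B moved from rank 5 in parental cells to rank 29 in CARM1 KO cells, KDM6A from rank 12 to rank 30 and KDM5C from rank 9 to rank 25. In the other direction, KDM5A moved from rank 27 to rank 11, SMYD3 from rank 16 to rank 4 and NSD3 from rank 18 to rank 7.

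**Figure D1:**
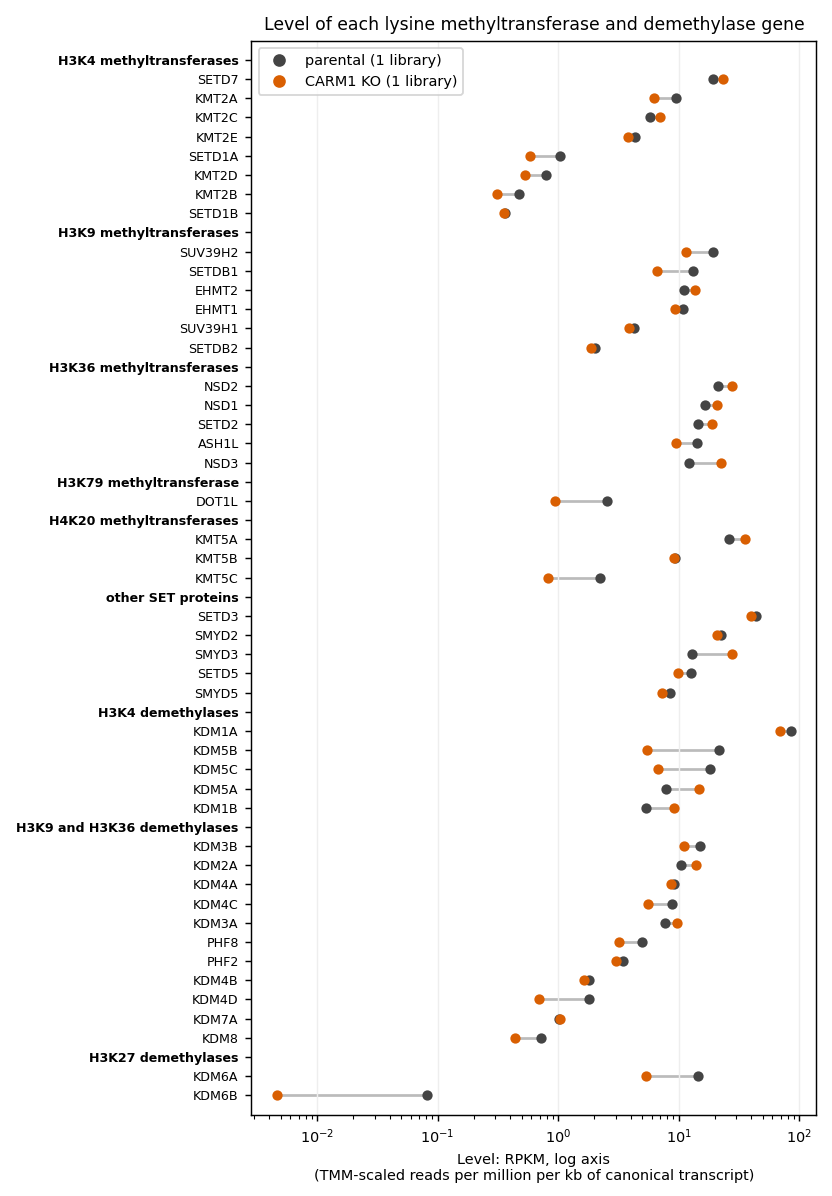
Level of the 46 genes, in RPKM on a log axis, in the parental library (grey) and the CARM1 KO library (orange), grouped by the mark each enzyme acts on and with 1 point per library. The longest lines among well expressed genes are those of KDM5B (21.5 to 5.50 RPKM), KDM5C and KDM6A, and KDM1A is the most abundant in both.

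The H3K4 demethylases held the widest contrast. These are KDM1A (LSD1) and KDM1B (LSD2), which remove mono- and dimethyl groups, and the KDM5 family, which remove di- and trimethyl groups. KDM5B, on chromosome 1 from 202693623 to 202777615, had 6184 parental and 1638 CARM1 KO reads. It was 3.90-fold lower in the knockout (95% interval 3.69 to 4.12). KDM5C, on chromosome X from 53205465 to 53254604, had 3252 and 1245 reads and was 2.70-fold lower (95% interval 2.53 to 2.88). KDM5A, at the end of chromosome 12 from 389223 to 498486, went the other way. It had 2586 parental and 5046 CARM1 KO reads and was 1.89-fold higher (95% interval 1.802 to 1.982).

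The make-up of the KDM5 family was thereby inverted. KDM5A gave 16.5% of the summed KDM5 RPKM in parental cells and 54.7% in CARM1 KO cells. KDM5B gave 45.4% and 20.4%, and KDM5C gave 38.2% and 24.9%. The sum of the family was 47.3 RPKM in parental and 26.9 RPKM in CARM1 KO cells. Because a ratio of paralogues within a library does not depend on scaling, the ratio of KDM5A to KDM5B reads was also compared. It was 7.37 times higher in CARM1 KO cells (exact conditional 95% interval 6.85 to 7.92), and that of KDM5A to KDM5C was 5.10 times higher (95% interval 4.70 to 5.53).

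KDM1B, on chromosome 6 from 18155560 to 18224085, had 758 parental and 1339 CARM1 KO reads, a 1.71-fold higher level (95% interval 1.56 to 1.87). KDM1A had 8137 and 6797 reads and was 1.24-fold lower (95% interval 1.197 to 1.277), within the 1.5-fold limit. KDM1B thus rose from 5.96% to 11.8% of the summed RPKM of the pair. The summed level of the H3K4 demethylases as a class was 137.8 RPKM in parental and 104.9 RPKM in CARM1 KO cells.

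Upstream sequence is given for the well counted members with the largest lower and higher values, KDM5B and SMYD3, and for the H3K27 demethylase KDM6A. The windows are from RefSeq, were matched to GRCh37, and were limited to bases before the start that hold no annotated exon. The capitals mark GC boxes, the letters GGGCGG on either strand, some of which overlap. KDM5B is at chr1:202777616-202777799 (minus strand), SMYD3 at chr1:246670615-246670831 (minus strand) and KDM6A at chrX:44732184-44732433 (plus strand).
KDM5B: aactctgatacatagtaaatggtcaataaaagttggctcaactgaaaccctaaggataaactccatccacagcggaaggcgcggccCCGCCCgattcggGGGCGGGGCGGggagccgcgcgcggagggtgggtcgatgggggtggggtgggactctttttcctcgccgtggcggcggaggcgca
SMYD3: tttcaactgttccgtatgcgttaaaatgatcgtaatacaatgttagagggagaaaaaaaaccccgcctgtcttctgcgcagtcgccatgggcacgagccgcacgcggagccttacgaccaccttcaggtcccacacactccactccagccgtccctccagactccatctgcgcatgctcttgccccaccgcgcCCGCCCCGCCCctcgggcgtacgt
KDM6A: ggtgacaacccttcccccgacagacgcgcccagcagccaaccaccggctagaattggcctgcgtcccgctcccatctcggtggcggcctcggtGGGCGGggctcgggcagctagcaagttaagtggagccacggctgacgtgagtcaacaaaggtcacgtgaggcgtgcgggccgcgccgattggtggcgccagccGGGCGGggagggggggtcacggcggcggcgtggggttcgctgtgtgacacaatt

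The upstream stretches of KDM5B, SMYD3 and KDM6A held 3, 2 and 2 GC boxes and 18, 20 and 27 CpG dinucleotides. RefSeq windows were listed for 43 of the 46 members. Over the 250 bases before the start, 33 of the 43 windows (76.7%) held a GC box, beside 42.4% of the 27195 windows of all genes, coding and non-coding. The median number of CpG dinucleotides was 23 in the members' windows and 11 in all windows. A TATA box, the letters TATAAA on either strand, was found in 0 of the 43 windows and in 11.1% of all windows. A CCAAT box, on either strand, was found in 12 of the members' windows (27.9%) and in 33.0% of all. These matches are descriptions of the letters in these windows, and the genes with higher and lower levels were not compared by them.

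Both H3K27 demethylases were lower in CARM1 KO cells by the interval rule, beside 18.5% of all genes. KDM6A (UTX), which also belongs to the KMT2C and KMT2D complexes, lies on chromosome X from 44732434 to 44972024. It had 2756 parental and 1054 CARM1 KO reads and was 2.70-fold lower (95% interval 2.51 to 2.90). KDM6B (JMJD3), an inducible enzyme of the same family, had 17 parental and 1 CARM1 KO reads. Its ratio was 17.6-fold, with a 95% interval from 2.75 to 734 at 18 reads in all, and with a prior count of 2 its log2 fold change went from -4.13 to -2.69. KDM6A gave 99.4% and 99.9% of the summed RPKM of the pair, which was 14.7 RPKM in parental and 5.41 RPKM in CARM1 KO cells. Among the other genes, 7.38% of those with at least 100 reads were more than 3-fold lower, and KDM6A stayed under that threshold.

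**Figure D2:**
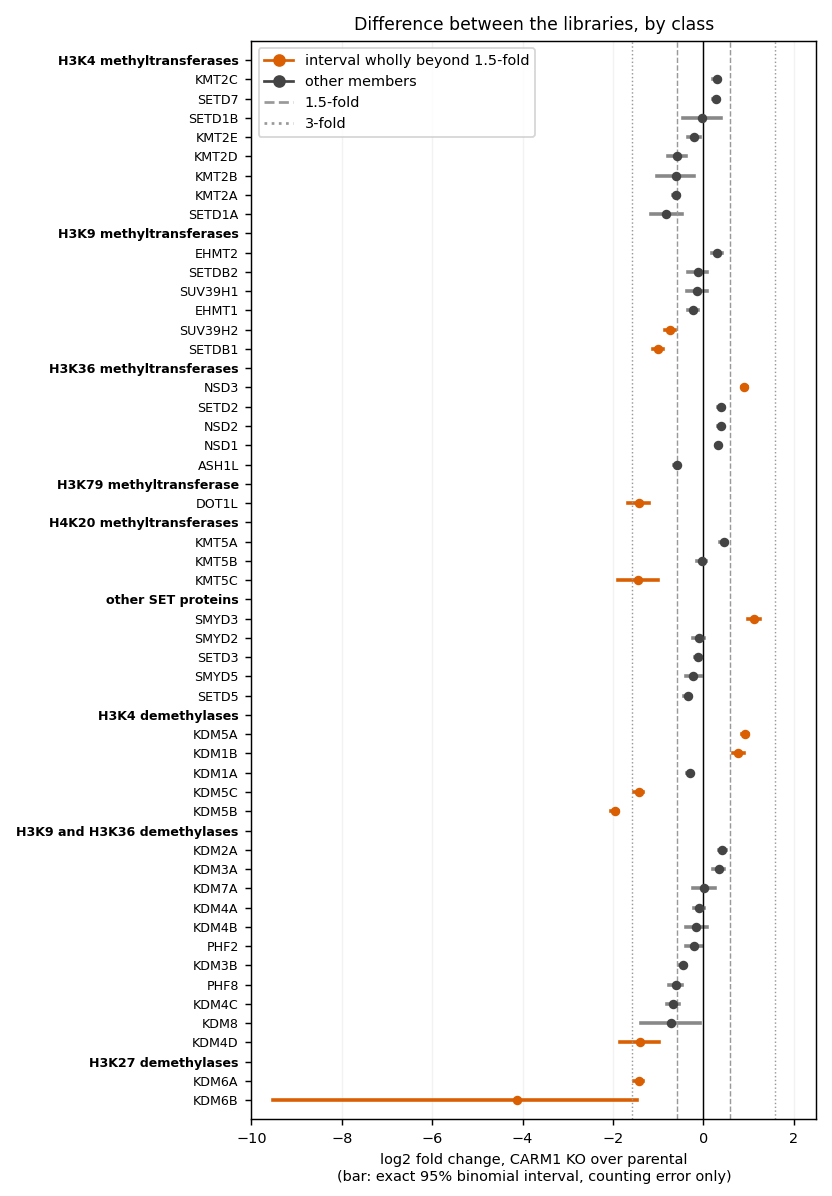
Log2 fold change of each member, CARM1 KO over parental, by class, with exact 95% binomial intervals for counting error. Orange points have an interval wholly beyond 1.5-fold (dashed lines), and KDM5B and KDM6B lie beyond 3-fold (dotted lines). The interval of KDM6B is wide because it had 17 reads in parental cells and 1 read in CARM1 KO cells.

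Of the 11 demethylases of H3K9 and H3K36, 1 was lower by the interval rule and 0 were higher, beside 18.5% and 19.3% of all genes. The lower gene was KDM4D, a member of the KDM4 family without a PHD finger, on chromosome 11 from 94706873 to 94732683. It had 166 parental and 65 CARM1 KO reads and was 2.64-fold lower (95% interval 1.97 to 3.57). KDM4C, which acts on both H3K9 and H3K36, had 1180 and 770 reads and was 1.58-fold lower, but its interval began at 1.44. KDM4A and KDM4B, of the same substrate range, had intervals that included no difference. The ratio of KDM4A to KDM4B reads changed by 1.04 times (95% interval 0.867 to 1.25), while that of KDM4A to KDM4C was 1.48 times higher in CARM1 KO cells (95% interval 1.31 to 1.67).

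PHF8, an X-linked demethylase of H3K9 and H4K20, had 972 and 655 reads, and KDM8 (JMJD5) had 54 and 34 reads. They were 1.53-fold and 1.64-fold lower, with intervals that began at 1.39 and 1.05. PHF2, which is of the PHF8 family, had 578 and 518 reads. KDM7A, the third of that family, had 292 and 304 reads and was level, with an interval of its ratio from 0.856 to 1.19. The H3K9 demethylases KDM3A and KDM3B moved apart within 1.5-fold. KDM3A had 1106 and 1441 reads and KDM3B had 3149 and 2373 reads, so the ratio of KDM3A to KDM3B was 1.73 times higher in CARM1 KO cells (95% interval 1.57 to 1.90). KDM2A, a CpG island binding demethylase of H3K36, had 2375 and 3270 reads and was 1.33-fold higher (95% interval 1.26 to 1.41).

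The H3K4 methyltransferases stayed within the interval rule, with 0 of 8 higher and 0 of 8 lower, beside 19.3% and 18.5% of all genes. KMT2A (MLL1) had 4881 parental and 3294 CARM1 KO reads and was 1.53-fold lower, with an interval that began at 1.46. KMT2B (MLL2), its closest paralogue, had 124 and 84 reads and was 1.52-fold lower. The ratio of KMT2A to KMT2B was 0.996 of its parental value (95% interval 0.746 to 1.34). KMT2C and KMT2D, which methylate H3K4 at enhancers, went different ways. KMT2C had 2997 and 3787 reads and was 1.22-fold higher, and KMT2D had 507 and 348 reads and was 1.505-fold lower. Their ratio was 1.84 times higher in CARM1 KO cells (95% interval 1.59 to 2.13). KMT2C passed KMT2A as the most abundant of KMT2A to KMT2D, with 34.8% of their summed RPKM in parental and 49.9% in CARM1 KO cells.

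SETD1A and SETD1B, the catalytic subunits of the broad H3K4 trimethylation complexes, were of low abundance. SETD1A had 193 and 113 reads and was 1.76-fold lower, with an interval from 1.39 to 2.24. SETD1B had 96 and 97 reads, and its interval included no difference. SETD7, which monomethylates H3K4 and many other proteins, had 4080 and 5122 reads and was 1.22-fold higher (95% interval 1.17 to 1.27). KMT2E, an MLL family protein without clear methyltransferase activity, had 1050 and 943 reads. The summed level of the class was 41.6 RPKM in parental and 42.3 RPKM in CARM1 KO cells, of which SETD7 gave 19.3 and 23.5 RPKM. Of the 8 members 6 had a lower value, as did 9556 of the 18563 genes tested. The median log2 fold change of the class was -0.40, beside -0.04 over all genes tested.

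Of the 6 H3K9 methyltransferases, 2 were lower and 0 were higher, where 18.5% and 19.3% of all genes were. SETDB1, which silences retroelements together with TRIM28, lies on chromosome 1 from 150898739 to 150937220. It had 1801 parental and 927 CARM1 KO reads and was 2.01-fold lower (95% interval 1.85 to 2.17). SUV39H2, an enzyme of constitutive heterochromatin, had 1819 and 1132 reads and was 1.66-fold lower (95% interval 1.54 to 1.79). It was the member nearest to the limit on the inside, and KMT2A, with an interval from 1.46, was the nearest on the outside.

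The paralogues of these enzymes differed less. SUV39H1 had 364 and 341 reads and SETDB2 had 392 and 370 reads, and both intervals included no difference. The ratio of SETDB1 to SETDB2 was 1.83 times lower in CARM1 KO cells (95% interval 1.55 to 2.16), and the ratio of SUV39H1 to SUV39H2 was 1.51 times higher (95% interval 1.27 to 1.78). EHMT1 (GLP) and EHMT2 (G9a), which act as a heteromer on euchromatic H3K9, had nearly equal levels of 10.9 and 11.1 RPKM in parental cells. They had 9.33 and 13.7 RPKM in CARM1 KO cells, and the ratio of EHMT1 to EHMT2 was 1.45 times lower (95% interval 1.308 to 1.598). The class summed to 60.7 RPKM in parental and 46.9 RPKM in CARM1 KO cells.

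In the H3K36 methyltransferases 4 of 5 members had a higher value in CARM1 KO cells, as did 9007 of the 18563 genes tested. By the interval rule 1 was higher, beside 19.3% of all genes. This was NSD3, with 4028 parental and 7799 CARM1 KO reads, a 1.87-fold higher level (95% interval 1.805 to 1.948). NSD1 had 6711 and 8720 reads and was 1.26-fold higher, and NSD2 had 4944 and 6676 reads and was 1.31-fold higher. SETD2, which trimethylates H3K36 in the wake of RNA polymerase II, had 3795 and 5142 reads and was 1.31-fold higher (95% interval 1.26 to 1.37). ASH1L, a trithorax group dimethyltransferase, had 5337 and 3658 reads and was 1.51-fold lower, with an interval from 1.44. NSD1 and NSD2 kept their ratio to 0.962 of its parental value (95% interval 0.916 to 1.01). Each lost ground to NSD3, whose share of the summed NSD RPKM was 24.2% in parental and 31.8% in CARM1 KO cells.

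DOT1L, the H3K79 methyltransferase, lies on chromosome 19 from 2163932 to 2232577. It had 598 parental and 229 CARM1 KO reads and was 2.70-fold lower (95% interval 2.31 to 3.15). Of the H4K20 methyltransferases, KMT5C, which trimethylates this residue in heterochromatin, had 158 and 60 reads and was 2.72-fold lower (95% interval 2.01 to 3.72). Its paralogue KMT5B had 1657 and 1673 reads, and the ratio of KMT5B to KMT5C was 2.66 times higher in CARM1 KO cells (95% interval 1.95 to 3.67). KMT5A (SET8), the monomethyltransferase whose level follows the cell cycle, had 2246 and 3176 reads and was 1.37-fold higher (95% interval 1.30 to 1.45).

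Among the other SET proteins SMYD3 was higher. SMYD3, a lysine methyltransferase of histones and of kinases in the cytoplasm, lies on chromosome 1 from 245912644 to 246670614. It had 621 parental and 1393 CARM1 KO reads, a 2.17-fold higher level (95% interval 1.97 to 2.39), the largest of the members in this direction. SMYD2 had 1216 and 1169 reads, so that the ratio of SMYD2 to SMYD3 was 2.33 times lower in CARM1 KO cells (95% interval 2.06 to 2.65). SETD3, which methylates a histidine of actin, had 3850 and 3643 reads. SMYD5 had 669 and 591 reads and SETD5 had 2706 and 2192 reads, both lower by less than 1.5-fold.

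Paralogues were compared in 22 pairs. The interval of the change in ratio excluded no change for 19 pairs and lay wholly beyond 1.5-fold for 8 pairs. It lay wholly beyond 3-fold for 2 pairs, KDM5A with KDM5B and KDM5A with KDM5C. The 3 pairs whose interval included no change were KMT2A with KMT2B, NSD1 with NSD2, and KDM4A with KDM4B. These intervals cover counting error only, and a spread between cultures would widen them by an unknown amount. No other gene pairs were compared, so these counts have no background share and cannot be called particular to paralogues. Among single genes, 18.5% were lower and 19.3% were higher by the interval rule.

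**Figure D3:**
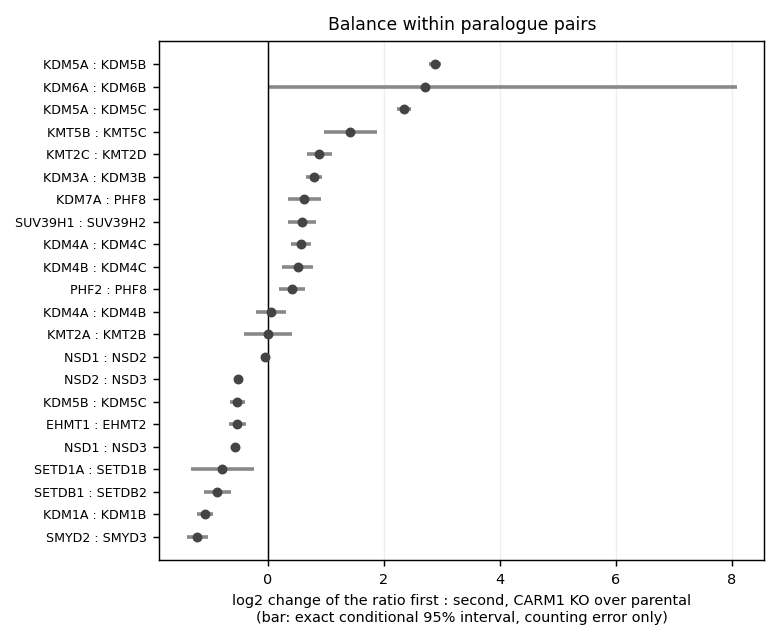
Log2 change of the ratio of reads within 22 paralogue pairs, CARM1 KO over parental, with exact conditional 95% intervals for counting error. KDM5A gained most on KDM5B (7.37 times) and on KDM5C (5.10 times) among pairs with narrow intervals, and the ratio of SMYD2 to SMYD3 was 2.33 times lower.

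To see each gene in its place on the chromosome, each member was set beside the 10 expressed protein-coding genes on either side of it, or fewer at a chromosome end. The median of the neighbours ran from -1.33 for SMYD2 to 0.88 for KDM4D on the log2 scale. The member and the median of its neighbours had the same sign for 29 of the 46 genes. Across the 46 genes, which share libraries and in places neighbours, Pearson's r was 0.34 and Spearman's rho 0.52. Of the 13 members beyond 1.5-fold, 9 also differed from the median of their neighbours by more than 1.5-fold and 4 did not. Other genes were not set beside their neighbours in this way. This count and the 29 of 46 therefore have no background share and cannot be called particular to the members. DNA copy number was not measured here, and its part in the differences was not tested.

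With 10 genes on either side, KDM5A and KDM1B were close to their neighbours. KDM5A had a log2 fold change of 0.92 and its 12 neighbours a median of 0.87, but with 25 genes on either side that median was 0.30 and KDM5A lay more than 1.5-fold above it. KDM1B had 0.77 with a median of 0.83, as part of a stretch of chromosome 6 where 12 of 20 neighbours were more than 1.5-fold higher. NSD3 had 0.91 beside 0.45 and SETDB1 had -1.005 beside -0.594. KDM6A, KDM5B and SMYD3 lay farther from the median of their neighbours. KDM6A had -1.43 where its neighbours had a median of -0.18, SMYD3 had 1.12 beside -0.31, and KDM5B had -1.96 beside -0.51. For KDM6A, 4 of 20 neighbours were more than 1.5-fold lower and 2 were more than 1.5-fold higher. These counts were 10 and 4 for KDM5B, and 6 and 7 for SMYD3. KDM5C had -1.43 beside -0.83. KDM4D had a log2 fold change of -1.40 in a stretch of chromosome 11 where the median was 0.88 and 17 of 20 neighbours were more than 1.5-fold higher.

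Other members stayed level where their neighbours did not. SMYD2 had a log2 fold change of -0.10 within a stretch of chromosome 1 where 15 of 20 neighbours were more than 1.5-fold lower, and the median of its neighbours was -1.33, or -0.77 with 25 genes on either side. KMT2E had -0.20 on chromosome 7 where 19 of 20 were more than 1.5-fold lower and the median was -1.26. On chromosome X, KDM6A and KDM5C were lower, PHF8 had a log2 fold change of -0.62 that did not pass the interval rule and SUV39H1 was nearly level at -0.14, while the median over 455 expressed genes of that chromosome was -0.17.

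**Figure D4:**
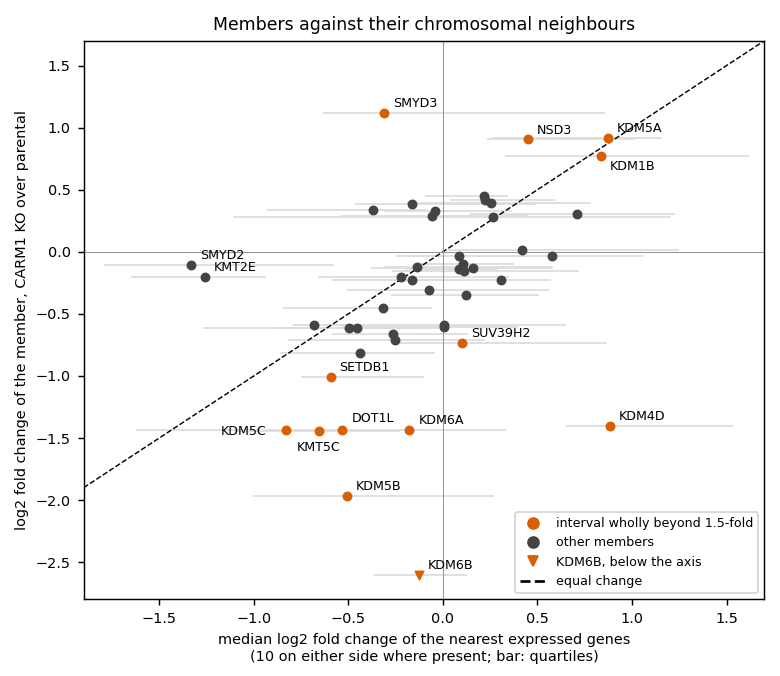
Log2 fold change of each member (vertical axis) against the median of its nearest expressed protein-coding genes (horizontal axis), with the quartiles of the neighbours as bars and equal change as the dashed line. With 10 genes on either side KDM5A and KDM1B lie on the line, KDM4D lies far below it, and SMYD2 and KMT2E lie well above it.

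Some members share their locus with a gene on the other strand, and the counting is not stated to use strand. For 7 members such a gene had at least 20% of the member's reads. DOT1L overlaps AP3D1, with 3915 parental and 2737 CARM1 KO reads, and PLEKHJ1, with 545 and 433 reads. SETDB1 overlaps CERS2, with 2776 and 2266 reads, and KMT2E overlaps SRPK2, with 2535 and 807 reads. KDM5A overlaps CCDC77, with 896 and 1867 reads. SUV39H2 overlaps DCLRE1C, with 709 and 672 reads, and NSD3 overlaps DDHD2, with 2276 and 2874 reads. SETD5 overlaps THUMPD3-AS1, with 855 and 1015 reads. Each of these overlapping genes moved in the direction of its member, except THUMPD3-AS1, which was higher where SETD5 was lower. The part of shared reads in the members' values was not tested.

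KDM1A (LSD1) works with CoREST proteins, histone deacetylases and accessory factors. Of the 10 partners reported, 7 were lower and 0 were higher by the interval rule, beside 18.5% and 19.3% of all genes, and the median log2 fold change of these was -1.38. RCOR2, a CoREST protein of embryonic and neural cells, had 1662 parental and 50 CARM1 KO reads and was 34.3-fold lower (95% interval 25.9 to 46.4). PHF21A, the reader of unmethylated H3K4 in the complex, had 688 and 217 reads and was 3.27-fold lower (95% interval 2.81 to 3.83).

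The other lower partners were ZMYM2, RCOR3, GSE1, ZMYM3 and HDAC1. ZMYM2 had 5413 and 1973 reads, RCOR3 had 1029 and 375 reads, and GSE1 had 840 and 308 reads. HDAC1 had 6968 and 4519 reads and was 1.59-fold lower (95% interval 1.53 to 1.65), while HDAC2 had 6683 and 7454 reads. RCOR1 had 504 and 466 reads and gave 15.8% of the reads of RCOR1, RCOR2 and RCOR3 in parental and 52.3% in CARM1 KO cells. HMG20B was 1.29-fold lower, within the limit.

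**Figure D5:**
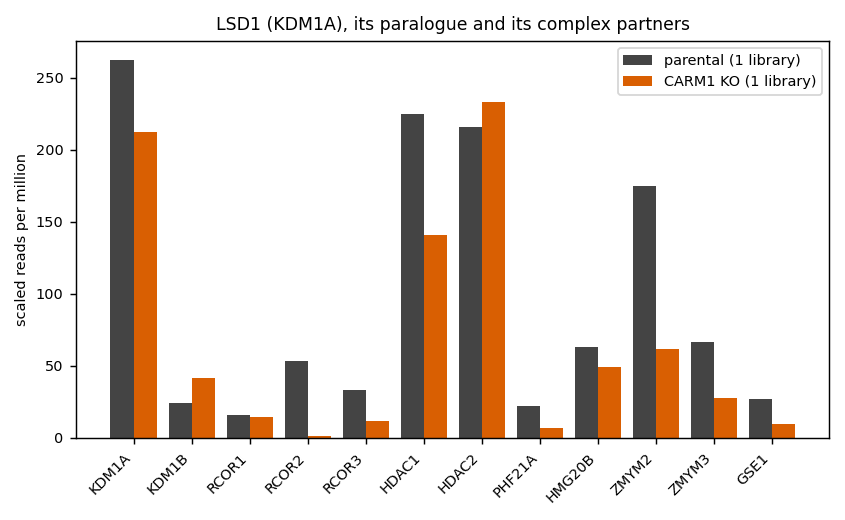
CPM of KDM1A, KDM1B and the 10 partners in the parental library (grey bars) and the CARM1 KO library (orange bars), to be compared between libraries within a gene and not between genes. The bars of RCOR2, RCOR3, PHF21A, ZMYM2, ZMYM3 and GSE1 are much lower in CARM1 KO cells, while KDM1A is 1.24-fold lower and HDAC2 is slightly higher.

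Of the 14 partners and readers of H3K9 methylation, 4 were lower and 0 were higher, beside 18.5% and 19.3% of all genes. MPHOSPH8, a reader of H3K9 methylation in the HUSH complex that works with SETDB1, had 3502 parental and 648 CARM1 KO reads and was 5.58-fold lower (95% interval 5.13 to 6.08). CBX5, which encodes heterochromatin protein HP1α, had 10837 and 4396 reads and was 2.55-fold lower. ATF7IP and ATF7IP2, which stabilize SETDB1, were 1.90-fold and 2.33-fold lower. TASOR, also of the HUSH complex, had 7523 and 11352 reads and was 1.46-fold higher.

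In the complexes of the H3K4 methyltransferases 3 of 12 tested subunits were higher and 2 were lower, where 19.3% and 18.5% of all genes were. HCFC2 had 564 and 1895 reads and was 3.25-fold higher (95% interval 2.96 to 3.58). ASH2L, a core subunit, and MEN1, which joins KMT2A and KMT2B, were 1.77-fold and 1.72-fold higher. CXXC1, which joins SETD1A and SETD1B, and PAXIP1, which joins KMT2C and KMT2D, were 1.72-fold and 1.93-fold lower. PAGR1 was not matched in the table. Of 5 tested DOT1L partners, 1 was higher and 0 were lower, beside the same shares. This was MLLT3 (AF9), with 37 parental and 196 CARM1 KO reads, a 5.13-fold higher level (95% interval 3.595 to 7.501). MLLT6 was not matched.

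Among 13 genes that supply or consume the cofactors, 3 were higher and 2 were lower, with 19.3% and 18.5% over all genes. NNMT, which consumes S-adenosylmethionine, had 731 and 3973 reads and was 5.26-fold higher (95% interval 4.86 to 5.70). IDH1, which makes 2-oxoglutarate in the cytoplasm, had 2632 and 520 reads and was 5.23-fold lower (95% interval 4.76 to 5.75). MAT2A, which makes S-adenosylmethionine, had 5712 and 4016 reads and was 1.47-fold lower, within the limit. Of 17 tested genes of other SET and JmjC proteins, 7 were higher and 2 were lower, against the same 19.3% and 18.5%. The lower genes were RIOX1, a JmjC hydroxylase, with 353 and 70 reads and 5.21-fold lower, and SETD4, 1.79-fold lower. Of the higher genes, JARID2, SMYD4, PRDM4 and JMJD1C were 1.99-fold, 1.87-fold, 1.77-fold and 1.65-fold higher. At few reads, PRDM8, PRDM16 and HR were more than 3-fold higher. MECOM, with 16 and 5 reads, was more than 3-fold lower, but its interval began at 1.16. PRDM16 had 2 parental and 43 CARM1 KO reads, a ratio of 20.8 with a 95% interval from 5.42 to 177. Of 19 proliferation genes 0 were higher (19.3% of all genes) and 2, CCNB1 and PLK1, were lower (18.5%), with a median log2 fold change of -0.06 over the list.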

How the data were processed

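RNA-Seq was analysed from 1 parental and 1 CARM1 KO library of A1847 cells. The authors used bowtie2 and hg19 for alignment and RSEM for a count per Ensembl gene (version 1.2.3 in the submitters' processing notes). The deposited counts are whole numbers and not normalized. Reads shared by similar genes are split by RSEM. Identifiers were matched to the GENCODE annotation of GRCh37 for 55501 of 57736 genes.

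Counts were scaled in edgeR 4.0.16 under R 4.3.3 by TMM over genes whose reads summed to at least 10. With 1 library per group the quasi-likelihood test has no residual degrees of freedom, and no p-value is given. Exact 95% intervals were computed with scipy 1.17.1. A count of 0 was set to 3 reads where the fold of a single gene was needed. For medians over lists or over all genes, and for neighbours, every count below 3 was set to 3 reads. RPKM were computed from canonical transcript lengths, so an isoform of another length would shift a level but not a fold change. The scaling and the fold threshold of 3 were tested on simulated counts, which held counting error and no spread between cultures.

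All members were named, with those beyond 1.5-fold and the 10 largest log2 fold changes in full, and further list genes mainly past 3-fold. Other list genes were chosen after their values were seen, as were the family shares. From the LSD1 partner list 1 gene is not reported here. The members and lists were chosen with earlier results of these data known. Alternatives were library size, DESeq2 1.42.0 size factors and upper-quartile scaling, other read minimums, a prior count of 2, the edgeR exact test at assumed coefficients of variation, and wider neighbourhoods. Sequences are from the labels, RefSeq and GRCh37. ChIP-seq was not analysed here.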

Additional observations from a re-analysis of the deposited data

How the results depend on the processing

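The scaling moved every log2 fold change by a constant of at most 0.04, and under library size only, DESeq2 size factors and upper-quartile scaling the counts remained at 9 lower and 4 higher members by the interval rule and at 2 lower and 0 higher members above 3-fold. The median log2 fold change of the members lay between -0.23 and -0.17 under these. With at least 100 reads, 1 member was more than 3-fold lower, because KDM6B was no longer counted. With the edgeR exact test at an assumed coefficient of variation of 0.12 the count was 2, and at 0.4 it was 0, because the test then assumes a wider spread. A prior count of 2 left all 46 members within their intervals, but moved KDM6B from -4.13 to -2.69 on the log2 scale. With 25 neighbours on either side, the neighbourhood median stayed within the quartiles for 45 members, and for KDM3A it went from -0.37 to 0.23, while KDM5A went from 0.87 to 0.30 within its quartiles. No paired analysis was possible because each group has 1 library, and for the same reason no library could be left out. Depth limited KDM6B and KDM8 most.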
